A study of Rattus norvegicus with 10 samples.

Results

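Long unnamed intergenic loci are stretches of the rat genome from which testis RNA was assembled but to which the deposited table gives no gene name. The members were chosen by 4 criteria: no gene name, a span of at least 5000 bp, no overlap with the span of any named row, and a level that averages 1 FPKM or more across the 2 columns of the table. FPKM counts sequenced fragments relative to transcript length and to the size of the library. These criteria kept 8983 rows at 5056 distinct loci, of 94827 rows at 62796 distinct loci in the table. Of 74189 unnamed rows, 65774 overlapped no named row, 23157 of those spanned at least 5000 bp, and 14174 of these lay below the level minimum. The mean level used in the choice comes from the same columns that are compared here, so the counts of members past a fold describe these columns and test nothing. For comparison at the same level minimum, the table holds 13152 named rows, 7653 unnamed intergenic rows with shorter spans and 32602 rows in all.

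The testes came from adult Wistar rats at postnatal day 120. The tissue label and library text name testis while the extraction text names liver, and in the table Prm1, a protamine gene of spermatids, was at 16271 FPKM with BDE-47 and 43238 with vehicle, with Alb, the albumin gene of liver, at 0.633 FPKM with BDE-47 and 0.920 with vehicle. The BDE-47 group were offspring of dams fed BDE-47, one of the polybrominated diphenyl ether flame retardants, at 0.2 mg per kg body weight per day in tocopherol-stripped corn oil, and the vehicle group were offspring of dams fed that oil alone. Dosing ran from pregnancy day 8 to postpartum day 21 with 7 dams in each group, and each group has 5 poly(A) RNA libraries. The table gives 1 FPKM value per group, so the spread between animals is unknown, no difference was tested, and the 2-fold limit used throughout is a rule of size. Litters are not named, so some libraries may be from littermates. The direction rests on the column names, BDE-47 and Control. Titles of the BDE-47 libraries carry the letter C and titles of the vehicle libraries the letter X, and nothing in the table ties a library to a column. The depth of the libraries is unknown.

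The mammalian testis is known for transcribing much of the genome outside annotated genes, above all in meiotic spermatocytes and round spermatids. Intergenic RNA there includes long noncoding RNA (lncRNA), precursors of piRNA, the small RNAs that silence transposons in germ cells, and transcripts of genes that an older annotation lacks. An assembly joins overlapping fragments into a bundle, and the span in the table is that of the bundle and not the length of 1 transcript.

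No row identifier of a member matched the RefSeq gene table of the newer rat assembly GRCr8, and that table was used only for the order of genes. For each locus, the genes that GRCr8 lists between the same named neighbours were counted. For 3897 of the 5056 loci both neighbours were found with a gap of 0.5 to 2 times the length on rn5, the build of the deposited table. Of these, 180 (4.62%) had no gene between the neighbours, 455 had exactly 1 gene, 2981 (76.5%) had at least 1 lncRNA gene and 2580 (66.2%) had at least 1 protein-coding gene. A gene in the gap was not matched to the locus itself, and its name is given as the sole occupant of that gap and not as the identity of the locus.

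The genome of build rn5 was not used here, so no sequence of a locus can be printed. Shown instead are the RefSeq GRCr8 promoter windows, 250 bases before to 50 after the gene's start, for 4 loci whose gap holds exactly 1 gene with a promoter entry, those among the rows named for their mean, difference, span or listed 0. The protein-coding genes Pdcl2 and Hkdc1 stand for loci of the highest levels, and 2 lncRNA genes for loci with the lowest differences. Capitals mark matches on either strand to AACNGT, the core of the site of MYB factors such as MYBL1, which drives piRNA precursors in spermatocytes, and to TGCGCA, the core of the site of NRF1, a factor of many housekeeping and germ-cell genes.
Pdcl2 (chr14:32228526-32228825, plus strand): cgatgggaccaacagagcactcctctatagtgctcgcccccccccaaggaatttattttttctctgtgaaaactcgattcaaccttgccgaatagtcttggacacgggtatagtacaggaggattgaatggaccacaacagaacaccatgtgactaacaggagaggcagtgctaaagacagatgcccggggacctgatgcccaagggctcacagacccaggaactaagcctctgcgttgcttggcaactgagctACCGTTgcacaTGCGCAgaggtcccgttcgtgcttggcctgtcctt
Hkdc1 (chr20:30900552-30900851, minus strand): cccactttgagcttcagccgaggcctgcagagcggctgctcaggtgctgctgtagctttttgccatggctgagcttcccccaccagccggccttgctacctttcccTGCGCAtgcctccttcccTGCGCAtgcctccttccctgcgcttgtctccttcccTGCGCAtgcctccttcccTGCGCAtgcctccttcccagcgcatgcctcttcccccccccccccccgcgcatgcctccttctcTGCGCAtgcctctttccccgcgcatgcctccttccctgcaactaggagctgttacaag
LOC102553296 (chr15:27244626-27244925, minus strand): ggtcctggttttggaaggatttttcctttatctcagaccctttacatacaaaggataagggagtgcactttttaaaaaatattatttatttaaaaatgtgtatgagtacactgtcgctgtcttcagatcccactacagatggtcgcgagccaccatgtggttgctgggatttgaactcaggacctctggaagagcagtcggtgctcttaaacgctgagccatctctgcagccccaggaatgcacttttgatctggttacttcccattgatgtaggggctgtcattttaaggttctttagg
LOC134483994 (chr1:245502583-245502882, plus strand): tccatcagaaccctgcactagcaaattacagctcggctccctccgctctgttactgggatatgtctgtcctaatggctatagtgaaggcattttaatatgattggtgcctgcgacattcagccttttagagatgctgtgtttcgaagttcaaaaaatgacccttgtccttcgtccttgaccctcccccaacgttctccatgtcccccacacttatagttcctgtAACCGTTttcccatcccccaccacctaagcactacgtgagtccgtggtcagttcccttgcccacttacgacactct
The Pdcl2 window holds 1 match to AACNGT and 1 to TGCGCA, the Hkdc1 window 5 to TGCGCA, the LOC134483994 window 2 overlapping ones to AACNGT, and the LOC102553296 window none. The G and C content was 53.0%, 64.3%, 49.3% and 43.7% in that order of genes, against a median of 51.7% over all promoter windows. TGACGT, the core of the cyclic AMP response element, was also searched and is in none of the 4. Of 33469 promoter windows, 27.8% hold AACNGT, 7.24% TGCGCA and 7.94% TGACGT. Over the 413 windows of genes that are alone in such a gap the shares were 30.5%, 7.75% and 5.81%, close to those over all windows. TGCGCA was added to the search after the sequences were seen. A match is a description of the letters only.

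Most long unnamed intergenic rows were low. Their mean level had a median of 2.69 FPKM, 3396 lay below 2 FPKM, 1451 reached 10 FPKM and 92 reached 100 FPKM. The median level was 3.03 FPKM in the BDE-47 column and 2.30 FPKM in the vehicle column. Together they held 10.3% of the summed FPKM of the BDE-47 column and 9.78% of that of the vehicle column. Distinct loci spanned 5001 to 803956 bp with a median of 21184 bp. At the edges of the rule, XLOC_016802 with a span of 5001 bp was at 3.51 FPKM in the BDE-47 column and 3.48 in the vehicle column, and XLOC_044121 with 4999 bp, just outside, at 1.38 and 2.45. XLOC_081419, just inside the level minimum, was at 2.00 FPKM in the BDE-47 column and listed at 0 in the vehicle column, and XLOC_091800, just outside it, at 0.883 and 1.12.

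Between the columns, 1362 rows (15.2%) were at least 2-fold higher with BDE-47 and 168 (1.87%) at least 2-fold lower on the log2(FPKM + 1) scale, while 7453 lay within 2-fold. Over all rows at the same level minimum 22.5% were higher and 2.82% lower, or 25.4% past 2-fold in all, so both shares of the long unnamed rows lay under the background. All differences below are BDE-47 minus vehicle on that scale, which understates the difference of low rows. The median difference was 0.21 (quartiles -0.26 and 0.71) for long unnamed rows, 0.37 for named rows, 0.36 for short unnamed intergenic rows and 0.32 for all rows. Named rows were higher in 27.6% and lower in 3.55%, and short unnamed intergenic rows in 25.1% and 3.18%. The 2814 unnamed rows that overlap a named row were higher in 15.5% and lower in 1.49%, with a median difference of 0.33. Low shares past 2-fold were thus not particular to the long intergenic rows. Among rows with at least 1 FPKM in each column, 615 of 6933 long unnamed rows (8.87%) were higher and 144 (2.08%) lower, beside 16.5% and 3.23% of all such rows, or 19.8% past 2-fold.

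**Figure D1:**
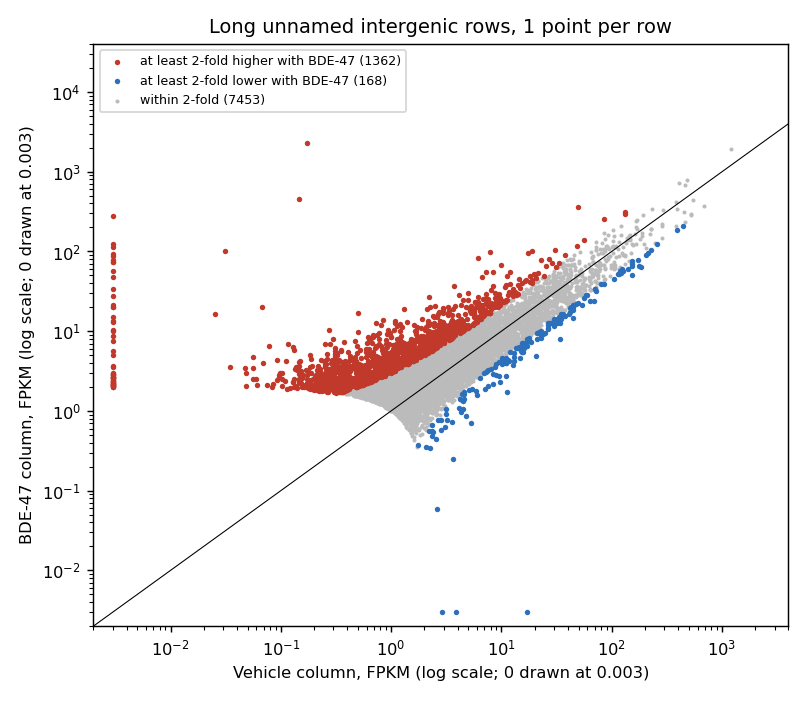
Level of each long unnamed intergenic row in the BDE-47 column (vertical axis, FPKM, log scale) against the vehicle column (horizontal axis, FPKM, log scale), with equal values on the line and a listed 0 drawn at 0.003. The 1362 higher rows and 168 lower rows are coloured, and 56 rows stand at the left edge because the vehicle column lists them at 0.

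The sign of the median depended on scaling. It was 0.21 as deposited, 0.067 after rescaling without the 10 most abundant rows and the mitochondrial genome, -0.19 after quantile normalization and -0.35 after median-of-ratios scaling, where the shift taken out was 0.79 on the log2 scale. Of the long unnamed rows past 2-fold, 89.0% were higher as deposited, against 74.9%, 41.4% and 25.1% under these scalings. Over all rows the shares were 88.9%, 77.6%, 56.1% and 35.9%, so the deposited share was that of the table. Under each of the 4 scalings the median of the long unnamed rows lay below those of the named and the short unnamed rows. For named rows the medians were 0.37, 0.20, 0.03 and -0.30 in the same order, and for short unnamed rows 0.36, 0.23, -0.03 and -0.16. Over all rows at the level minimum they were 0.32, 0.16, -0.06 and -0.27. Median-of-ratios scaling thus put the compared rows as a whole below 0, and values under it carry that shift.

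Cell markers moved between the columns too. Of 8 late spermatid markers 6 were at least 2-fold lower with BDE-47 (summed level 30828 FPKM with BDE-47 and 77234 with vehicle) and none was higher. All 6 Leydig cell markers (1327 and 121 FPKM) and all 7 macrophage markers (400 and 19.2 FPKM) were higher, as were 5 of 6 Sertoli cell markers kept (1854 and 337 FPKM) and 2 of 7 pachytene spermatocyte markers (1952 and 1902 FPKM). Among genes of other tissues, 0 of 2 epididymis and 1 of 3 liver genes that reached the level minimum were higher. Of the markers kept, 1 of 4 peritubular, 2 of 2 endothelial and 3 of 3 blood cell genes were higher. In whole testis, fewer cells of a type and less RNA per cell cannot be told apart, and the part of these shifts in the differences of the unnamed loci was not tested.

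Rows of a locus did not always move together. There were 3279 loci with 1 member row and 1777 with at least 2, up to 38 at 1 locus. In 915 of the 1777 (51.5%) all rows differed in the same direction, and 21 loci held both rows past 2-fold upward and rows past 2-fold downward. The median range of differences within a locus was 0.73. Taking the row with the highest mean of each locus left 620 of 5056 (12.3%) higher and 131 (2.59%) lower with a median of 0.051. The other 3927 rows, which are lower in level, were higher in 742 cases (18.9%) and had a median of 0.40.

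Level and span went with the difference. From 1 to 2 FPKM the median difference was 0.32, from 5 to 10 FPKM 0.06, and at 50 FPKM or more -0.14. In the top bin 19 of 232 rows (8.19%) were higher and 26 (11.2%) lower, which was the sole level bin with more lower than higher rows. Named rows at 50 FPKM or more had a median of -0.08 with 13.4% higher, and short unnamed rows there had 0.41 with 36.3% higher. By span, the median was -0.04 at 5000 to 10000 bp, 0.09 at 10000 to 25000 bp, 0.29 at 25000 to 100000 bp and 0.42 above that. Loci with a single row in the table gave -0.03, 0.16, 0.30 and 0.51. Named rows ran the other way, at 0.54, 0.40, 0.35 and 0.30.

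**Figure D2:**
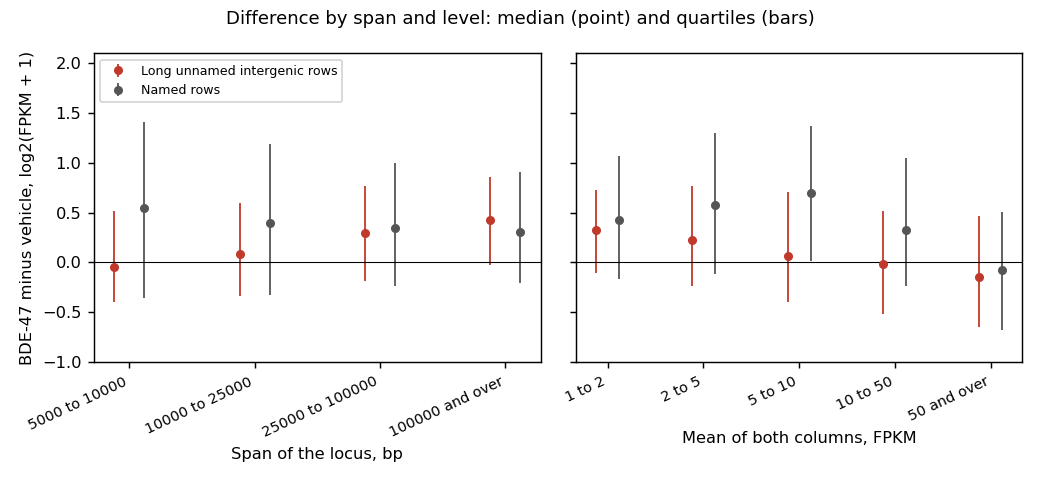
Median difference with quartile bars (BDE-47 minus vehicle, log2(FPKM + 1)) by span of the locus in bp (left) and by mean level in FPKM (right), for long unnamed intergenic rows and named rows. The long unnamed rows climb from -0.04 to 0.42 with span while named rows decline from 0.54 to 0.30. In the highest level bin both classes have a median below 0, at -0.14 and -0.08.

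The loci with the highest levels mostly lay within 2-fold in the deposited values. Of the 10 rows with the highest mean, 9 were within 2-fold and 6 had the higher value in the BDE-47 column, and the 10 together held 9.95% of the summed level of these rows with BDE-47 and 7.08% with vehicle. XLOC_077986 (chr7:20564034-20646216, rn5) led at 1911 FPKM with BDE-47 and 1209 FPKM with vehicle (difference 0.66). It lies more than 1 Mb from any named row, between 2 rows of Vom2r56, a vomeronasal receptor gene. XLOC_025193 (chr14:34170354-34191160), between Nmu and the circadian gene Clock, was at 776 and 481 FPKM (0.69). The sole gene in its GRCr8 gap is Pdcl2, which encodes a phosducin-like protein of spermatids in mouse and whose promoter window is printed above. Both of these differences turned to below 0 under median-of-ratios scaling, at -0.13 and -0.10.

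XLOC_025488 (chr14:53176579-53192324), far from its neighbours Hmgb3 and Pcdh7, was at 719 FPKM with BDE-47 and 410 FPKM with vehicle. XLOC_071624 (chr5:142180264-142235063) was at 680 and 461 FPKM in a gap that holds Ybx1, a Y-box RNA-binding protein gene, Ppih, Ccdc30, Ppcs and noncoding genes. XLOC_044259 (chr2:49505025-49511807), between Bdp1 and Smn1, was at 416 and 380 FPKM in a gap that holds Serf1 and 1 lncRNA gene. The differences were 0.81, 0.56 and 0.13, and those of XLOC_071624 and XLOC_044259 turned to -0.23 and -0.66 under median-of-ratios scaling.

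Of the 10, 4 were lower with BDE-47. XLOC_061702 (chr4:56448454-56471715), between Opn1sw, a cone opsin gene, and Flnc, a filamin gene, was at 367 FPKM with BDE-47 and 690 FPKM with vehicle (-0.91), and its gap holds Ccdc136, a gene needed for acrosome formation in mouse, and a tRNA gene. XLOC_053600 (chr20:33784697-33803347) was at 296 and 523 FPKM (-0.82). Hkdc1, a hexokinase-family gene, is alone in that gap, and the named neighbour Hk1, a hexokinase with a sperm-specific form, was at 360 and 750 FPKM. XLOC_061808 (chr4:59110499-59122669) was at 288 and 523 FPKM, and XLOC_030320 (chr15:109636481-109689316) at 437 and 541 FPKM. All 4 stayed lower under the other 3 scalings, and after median-of-ratios scaling all 4 were past 2-fold, at -1.70, -1.61, -1.65 and -1.10 in the order given. XLOC_061702, XLOC_053600 and XLOC_061808 were also past 2-fold after rescaling, at -1.11, -1.01 and -1.05.

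The largest gap between the columns was on chromosome 4. XLOC_062414 (chr4:163268234-163311794) was at 2272 FPKM with BDE-47 and 0.174 FPKM with vehicle (difference 10.92), the highest single value among all long unnamed rows. Its neighbour Rpia, an enzyme of the pentose phosphate pathway, was at 25.6 and 12.7 FPKM. Some of the other large differences lay in an interval of chromosome 6 where GRCr8 lists variable segments. Variable segments are the gene pieces that B cells join to make antibodies and T cells to make their receptors, and plasma cells make antibody RNA in very large amounts. Without an rn5 gene annotation of these segments, no locus was assigned to a segment, nor to an antibody rather than a T-cell receptor gene.

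On chromosome 6, 17 member rows at 7 loci lie between Adam6 and Zfp386 (chr6:148728709-152087757), where GRCr8 lists 145 variable segments among 171 genes in a gap of like length. Of these rows 13 passed 2-fold upward and 2 downward, and the summed level was 853 FPKM with BDE-47 and 31.2 FPKM with vehicle. The vehicle column listed 11 of the 17 at 0. XLOC_077409 (chr6:151749127-152087757) was at 280 FPKM with BDE-47, XLOC_077373 (chr6:148996671-149171259) at 124, and XLOC_077406 at 88.0, all listed at 0 with vehicle. XLOC_077392 was at 19.8 and 0.0670 FPKM and XLOC_077400 at 16.4 and 0.0252. The 2 lower rows were XLOC_077371 at 0.966 and 4.26 FPKM and XLOC_077393 at 5.62 and 14.9, so the interval did not go 1 way. The named Adam6 row that bounds it, a gene of the ADAM family expressed in sperm, was at 60.1 and 65.8 FPKM.

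On chromosome 3, 23 member rows at 6 loci lie between the odorant receptor genes Olr410 and Olr411 (chr3:21666921-25897145), with 10 higher and 1 lower and a summed level of 734 FPKM with BDE-47 and 41.3 FPKM with vehicle. XLOC_054419 (chr3:23474517-23930982) was at 452 and 0.146 FPKM, XLOC_057675 (chr3:22295050-22352693) at 16.7 and 0.503, and XLOC_054413 (chr3:22671446-22716468) at 93.1 with BDE-47 and listed at 0 with vehicle. GRCr8 lists no gene between these neighbours, in a gap of other length. Most of the other rows of the bundle that holds XLOC_054419 lay within 2-fold, between 1.51 and 9.51 FPKM with BDE-47 and between 0.599 and 7.36 FPKM with vehicle. XLOC_054420 in the same bundle was at 48.5 FPKM with BDE-47 and listed at 0 with vehicle.

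**Figure D3:**
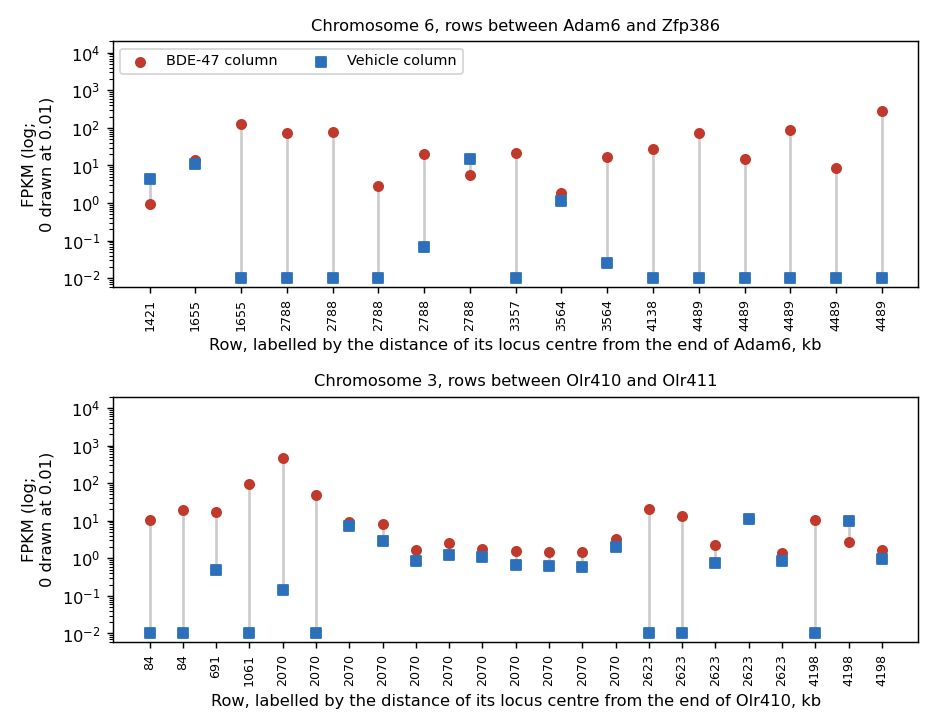
FPKM of each member row in the BDE-47 column (circles) and the vehicle column (squares) on a log scale, in order along chromosome 6 between Adam6 and Zfp386 (top) and chromosome 3 between Olr410 and Olr411 (bottom), labelled by distance in kb, with a listed 0 drawn at 0.01. In the top panel 11 of 17 vehicle values and in the bottom panel 7 of 23 are listed at 0, while 2 and 1 rows are at least 2-fold lower with BDE-47.

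In all, 56 of the 8983 long unnamed rows were listed at 0 with vehicle and 3 were listed at 0 with BDE-47. Of all 32602 rows at the level minimum, 265 were listed at 0 with vehicle only and 18 with BDE-47 only. Among 7653 short unnamed intergenic rows the counts were 174 and 4, so such zeros were not particular to the long unnamed rows. A listed 0 need not mean absent RNA, since the ribosomal protein gene Rps6 is listed at 0 in both columns. What lies behind a 0 in 1 column only was not tested. Of the 56, 20 reached 10 FPKM with BDE-47, and 10 of those lie on chromosome 6, 7 on chromosome 3, 2 on chromosome 2 and 1 on chromosome 11. The row on chromosome 11, XLOC_017598 (chr11:88565801-88590485), was at 33.6 FPKM with BDE-47, between Olr1570 and Hira, where GRCr8 lists variable and constant segments. It was singled out after its value was seen. XLOC_076127 (chr6:85434548-85479688), between Baz1a, a chromatin remodelling gene, and Srp54a, was at 113 FPKM with BDE-47 and listed at 0 with vehicle, in a gap with no gene in GRCr8. The 3 rows listed at 0 with BDE-47 were XLOC_088355 (chr9:7386799-7527688) at 16.9 FPKM with vehicle, XLOC_017870 at 3.89 and XLOC_005816 at 2.87.

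Genes of B cells and plasma cells, a list added after these loci were seen, were set beside them. Of 17 genes 15 were in the table and 7 reached the level minimum, of which 5 passed 2-fold upward and 0 downward, with a median difference of 1.37 and summed levels over the 15 of 330 FPKM with BDE-47 and 208 FPKM with vehicle. Ms4a1, which encodes the B-cell surface protein CD20, made up most of both sums. Xbp1, a factor of secreting cells, was at 38.1 FPKM with BDE-47 and 4.99 FPKM with vehicle, and Mzb1, a chaperone of antibody assembly, at 6.11 and 0.266. Derl3, a gene of protein disposal in secreting cells, went the other way at 13.7 and 17.3 FPKM. The part of such cells in the unnamed loci was not tested, and with 1 value per group a single library could carry it.

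The other rows with the highest differences lay outside these intervals. XLOC_077355 (chr6:147140204-147241275), between Crip1 and Dgcr2 on chromosome 6, was at 102 FPKM with BDE-47 and 0.0312 FPKM with vehicle (6.64). The named Crip1 row, a LIM-domain protein gene, was at 80.4 and 7.73 FPKM. XLOC_046035 (chr2:200267406-200276128), between Pdgfc and Tdo2, was at 83.3 and 6.15 FPKM (3.56). XLOC_048465 (chr2:73735306-73768192) was at 98.4 and 7.89 FPKM (3.48) between C6, a terminal complement gene, and Card6, and its gap holds C7, another terminal complement gene, and Mroh2b. XLOC_045429 on chromosome 2 was at 10.3 and 0.275 FPKM (3.14), and XLOC_093583 (chrX:5778349-5985105), between Dusp21 and Fundc1, at 27.1 and 2.19 FPKM (3.14). All rows named for high differences stayed at least 2-fold higher under the other 3 scalings.

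The lowest differences were modest in level. XLOC_060537 (chr3:174889886-174902284), between Dok5 and Cbln4, was at 1.73 FPKM with BDE-47 and 11.2 FPKM with vehicle (-2.16). XLOC_068955 (chr5:150971675-150980527) was at 7.94 and 34.1 FPKM (-1.97). It ends 122 bp from Rnf19b, a ubiquitin ligase gene that was itself at 143 and 286 FPKM. XLOC_030854 (chr15:32268960-32280240), between Olr1638 and Hnrnpc, was at 0.712 and 5.28 FPKM (-1.87), with the lncRNA gene LOC102553296 alone in its gap. XLOC_010337 (chr1:264512426-264526368), between Lgi1 and Slc35g1, was at 0.0587 and 2.60 FPKM (-1.77), with LOC134483994 alone in its gap. The other 6 of the 10 ranged from 0.248 to 4.89 FPKM with BDE-47 and from 3.63 to 20.4 FPKM with vehicle, at XLOC_035496, XLOC_021758, XLOC_011422, XLOC_092095, XLOC_017249 and XLOC_071789. All 10 stayed at least 2-fold lower under the other 3 scalings.

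The 5 longest spans lay within 2-fold in the deposited values. XLOC_045525 (chr2:151769627-152573583), in a bundle of 54 rows, was at 51.6 FPKM with BDE-47 and 37.5 FPKM with vehicle (0.45), and XLOC_064910 (chr4:140908550-141700511) at 60.5 and 53.1 (0.19). XLOC_034329 on chromosome 16 was at 1.56 and 1.11 FPKM, XLOC_088090 on chromosome 8 at 8.28 and 8.82, and XLOC_083522 on chromosome 8 at 14.2 and 18.9. These 5 had differences from -0.39 to 0.45. After median-of-ratios scaling XLOC_083522 was past 2-fold at -1.13, and XLOC_045525, XLOC_064910 and XLOC_034329 turned to -0.32, -0.59 and -0.17.

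What GRCr8 lists in the gap went with the difference. Rows in gaps with exactly 1 protein-coding gene were at least 2-fold higher in 93 of 383 cases (24.3%) and lower in 7, with a median difference of 0.31. Rows in gaps with exactly 1 lncRNA gene were higher in 14 of 254 cases (5.51%) and lower in 5, with a median of -0.07. Over all rows at the level minimum 22.5% were higher and 2.82% lower, so the coding class lay near that background and the lncRNA class below it in the share higher. The median level was 3.17 FPKM in the first class and 2.47 FPKM in the second. The coding class kept the higher median under all 4 scalings, at 0.31, 0.15, -0.10 and -0.29 against -0.07, -0.22, -0.50 and -0.67. With all gaps counted, rows in gaps with a protein-coding gene were higher in 17.4%, rows with lncRNA genes and no coding gene in 8.15%, and rows with no gene between in 12.2%. This split was made after the values were seen and was not tested.

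**Figure D4:**
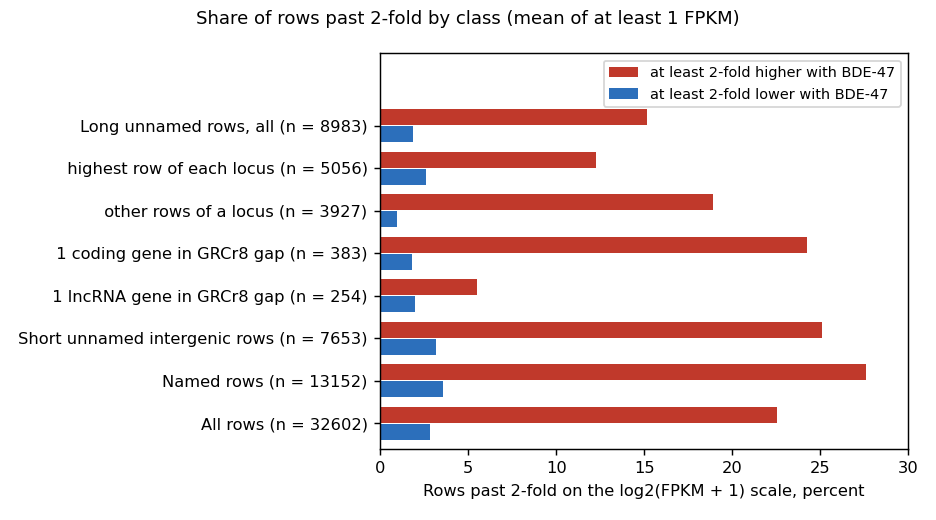
Percent of rows past 2-fold upward (first bar) and downward (second bar) with BDE-47 (bars), by class of row, with the number of rows in each label. Long unnamed rows reach 15.2% higher, those with 1 coding gene in the GRCr8 gap 24.3% and those with 1 lncRNA gene 5.51%, beside 27.6% of named rows.

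The gaps with 1 coding gene held 202 distinct genes, of which 198 are named nowhere in the deposited table by symbol or synonym. At 50 FPKM or more, 17 rows of this class were found, and 13 of them were lower with BDE-47, 3 by at least 2-fold. At that level 26 of all 232 long unnamed rows (11.2%) and 11.2% of named rows were at least 2-fold lower. Both had medians below 0, so lower values there were not particular to this class. XLOC_034412 (chr16:49248589-49256861), where Ccdc110 is alone between Ufsp2 and Pdlim3, was at 124 FPKM with BDE-47 and 256 FPKM with vehicle (-1.04). XLOC_077736, where Mex3d, an RNA-binding protein gene, is alone between Mbd3 and Plk5, was at 89.9 and 204 FPKM (-1.17). XLOC_050538, with the ubiquitin-like gene Ubl4b alone, was at 127 and 247 FPKM, and XLOC_003904, with RGD1563285 alone, at 343 and 388. The rows higher with BDE-47 included the locus of the Pdcl2 gap and XLOC_089945 with Rbm44, a germ-cell RNA-binding protein gene, at 108 and 93.7 FPKM. XLOC_079993, in the gap of the piRNA helicase gene Mov10l1, which the table does not name, was at 30.3 and 42.2 FPKM. These genes were singled out after their values were seen.

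Named genes of the piRNA pathway were compared because piRNA precursors are long intergenic transcripts. Of 23 genes 17 were in the table, and 0 of the 16 that reached the level minimum were past 2-fold, with a median difference of -0.20. In the BDE-47 column 7 of the 17 had the higher value. The 2 with the highest level were both lower there. Mael, a factor of transposon silencing, was at 760 FPKM with BDE-47 and 820 FPKM with vehicle, and Gtsf1, a PIWI partner, at 465 and 739. The table was made from poly(A) RNA and holds no small RNA, so no locus can be called a piRNA cluster from it. Of 18 named lncRNA genes 6 were in the table, with 2 higher and 1 lower. Gas5, a snoRNA host gene, was at 77.7 and 15.1 FPKM, Snhg4, another host gene, at 9.32 and 1.24, and the row of H19, an imprinted lncRNA, with Mir675 at 0.768 and 11.1.

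By chromosome, the X stood highest. On the X, 66 of 239 long unnamed rows (27.6%) passed 2-fold upward and 2 downward, with a median of 0.63, and 186 of 354 named rows (52.5%) were higher with a median of 1.06. Chromosome 12 had the lowest median at -0.15 over 254 rows, beside 0.18 for its named rows, and the other chromosomes lay between 0.00 and 0.38. The X median stayed above that of all long unnamed rows under each scaling, at 0.05 against -0.35 after median-of-ratios scaling and 0.24 against -0.19 after quantile normalization. The table holds no row on the Y chromosome.

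**Figure D5:**
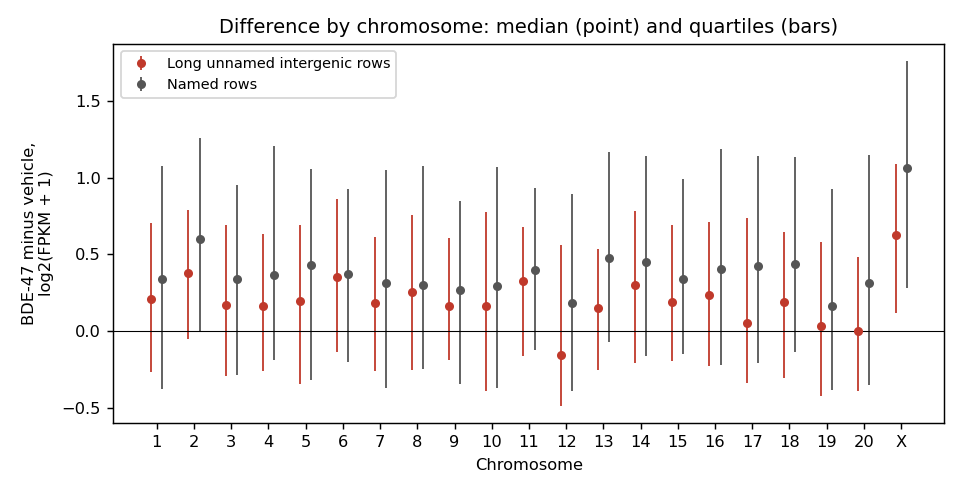
Median difference (points) with quartile bars, BDE-47 minus vehicle on the log2(FPKM + 1) scale, for each chromosome, for long unnamed intergenic rows and named rows. The X has the highest medians in both classes, 0.63 and 1.06, and chromosome 12 is the sole one where the long unnamed rows have a median below 0, at -0.15.

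Nearness to a named gene told little about the difference. The nearest named row was a median of 42334 bp away, within 10000 bp for 1385 loci and at 100000 bp or more for 1739. Across loci, the difference of the highest row and that of the nearest named row at 1 FPKM or more correlated at Pearson r = 0.18 and Spearman rho = 0.18 within 1000 bp (n = 498), 0.06 and 0.06 from there to 10000 bp (n = 717), 0.11 and 0.11 to 100000 bp (n = 1748), and 0.05 and 0.06 beyond (n = 2093). The points share both columns, and loci are not replicates. Within 1000 bp, 22.0% of loci were higher where the neighbour was higher and 9.84% where it lay within 2-fold. These shares were 20.6% and 15.1% from there to 10000 bp, 17.6% and 10.6% to 100000 bp, and 14.0% and 9.20% beyond. The order of these 2 shares thus held at every distance, beside 12.3% higher over all 5056 loci. Where the neighbour was at least 2-fold lower, 3 of 22, 1 of 30, 8 of 54 and 1 of 41 loci were higher, by increasing distance. That small class did not extend the order at every distance.

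Neighbouring loci less than 10000 bp apart formed 4416 runs, of which 3872 held a single locus and 544 at least 2, up to 5. In the run of 5 loci at chr10:98120910-98253076, between the lipid transporter genes Abca8a and Abca5, 8 of 10 rows passed 2-fold upward and the median was 1.67, at 1.71 to 8.40 FPKM with BDE-47 and 0 to 3.97 FPKM with vehicle. All 4 rows of the run at chr16:82852234-82987757, between Rab20 and the basement membrane collagen gene Col4a1, were higher, with a median of 1.39. The protein-coding gene Col4a2 is alone in that GRCr8 gap, so these neighbouring loci may not be separate transcripts. Of the other 3 of the 5 longest runs, the one on chromosome 5 held 1 row past 2-fold upward and 1 downward. The others held none. At chr13:39495424-39724815 the median over 6 rows was -0.38, at chr10:104954867-105084378 next to Foxj1, the master factor of motile cilia, it was -0.42 over 9 rows, and at chr5:142136154-142273129 it was 0.51 over 12 rows.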

How the data were processed

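The authors deposited 1 table with a log2 FPKM value for each group and row, and their log2 ratio, which matched BDE-47 minus Control to within 0.01 in every row. Per the submitters' processing notes, TopHat2 and Cuffdiff 2.1.1 were used on build rn5. Annotation, strand setting and handling of libraries within a group were not given in the sources used here. Deposited log2 values were turned back to FPKM, with the floor of -10 read as listed at 0. Differences are log2(FPKM + 1), BDE-47 minus vehicle. The planned test needed values per library and was not run. Neighbours are the nearest named rows on either side. Rows named are the 10 highest in mean, the 10 highest and 10 lowest differences past 2-fold above 0 in both columns, the 5 longest spans, 5 listed at 0, the 5 longest runs and those at the thresholds. Rows listed at 0 with BDE-47, single rows of an interval and rows in gaps with 1 gene were named after their values were seen. The members, lists and rules were chosen with earlier results of these data known. A few results under these rules are not reported here. The selection of rows and the counting past 2-fold were checked on test rows with known answers. Python 3.11.15, pandas 2.3.3, numpy 2.4.6 and matplotlib 3.10.9 were used.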

Additional observations from a re-analysis of the deposited data

How the results depend on the processing

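All values are BDE-47 against vehicle, as rows higher, rows lower and median difference, beside 1362, 168 and 0.21 as reported. The median turned to -0.35 under median-of-ratios scaling (529 higher, 1579 lower) and to -0.19 under quantile normalization (663 and 938), which equalises the columns by construction. Over all rows at the level minimum the median was -0.27 and -0.06 in that order. Median-of-ratios scaling thus put the compared rows as a whole below 0. Rescaling without the 10 most abundant rows and the mitochondrial genome gave 0.067 with 350 lower. A pseudocount of 0.1 gave 2213, 429 and 0.28, and 0.01 gave 2328, 466 and 0.29. The median was 0.25 at a mean of at least 0.5 FPKM, 0.13 with 877 higher at 2 FPKM, 0.23 with no minimum, 0.26 at a span of 10000 bp, 0.18 at 2000 bp, 0.20 without rows listed at 0, and 0.22 with 97 lower at 10000 bp or more from any named row. One row per locus gave 620 higher and 0.051. Alternatives chosen after seeing the data gave 615 and 0.071 at 1 FPKM or more in both columns, where all rows were higher in 16.5% and lower in 3.23%, then 222, 37 and 0.14 over loci with 1 row in the table, and 0.20 without chromosomes 3, 4, 6 and 11. Other counts stayed within 1.5 times. Leaving out replicates was not run, and no paired analysis was possible because the table holds 1 value per group. No value has an error, and the depth behind low rows is unknown. Of the 8983 rows, 1698 lay below 1 FPKM with vehicle and 352 with BDE-47.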

Other observations

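Some intervals between named genes held long unnamed rows that were all at least 2-fold higher with BDE-47. Of 2838 such intervals 555 held at least 5 member rows, and in 10 of these every row was higher, while in 220 no row was past 2-fold. They were picked out by this count after the values were seen. Between Trim41, a ubiquitin ligase gene, and Irgm, an interferon-induced GTPase gene, on chromosome 10, 5 of 5 rows at 1 locus were higher, with a summed level of 178 FPKM with BDE-47 and 36.1 FPKM with vehicle. Between Unc45b and Slfn13, a schlafen gene, 5 of 5 rows at 1 locus summed to 24.2 FPKM with BDE-47 and 2.51 FPKM with vehicle. The protein-coding gene Slfn5 is alone in that GRCr8 gap. Between Anxa10, an annexin gene, and Cbr4, a reductase gene, on chromosome 16, 8 of 8 rows at 5 loci summed to 36.9 and 4.53 FPKM. Between Grk5, a receptor kinase gene, and Ces2c, a carboxylesterase gene, 7 of 7 rows at 1 locus summed to 23.9 and 5.39 FPKM. Rows of 1 locus share a bundle and are not separate measurements.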
